A study of Mus musculus with 12 samples.

Results

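Genes that mark contractile smooth muscle were followed through 12 RNA-seq libraries of primary mouse aortic cells labelled as smooth muscle cells. They are Acta2, Myh11, Mylk, Myl9, Tagln, Cnn1, Smtn, Lmod1, Des and Myocd, 10 of 29462 genes in the deposited table, chosen by symbol, and each symbol stood on 1 row. The 6 CSE KO libraries came from mice that lack cystathionine gamma-lyase (CSE, encoded by Cth) in the whole body, and the 6 CSE WT libraries from C57BL/6J mice. Cells of both genotypes had received angiotensin II, a vasoconstrictor peptide, at 1 uM for 24 h, and no untreated cells were analysed here. The sources used here do not give the age of the mice or the knockout allele. Nor do the labels tell separate animals or cultures apart within a genotype, so p-values reflect the spread among these libraries alone, and that spread may be technical. Values are FPKM, fragment numbers scaled to gene length and library size, which allow levels of different genes to be compared. They are given to 2 decimals, and the depth in reads is unknown.

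Contraction of smooth muscle rests on actin and myosin filaments whose sliding is switched on when a calcium-dependent kinase phosphorylates the regulatory light chain of myosin. Most genes of this apparatus are turned on by serum response factor (SRF), which binds a DNA element called the CArG box, together with its coactivator myocardin. Vascular smooth muscle cells are known to lower these genes in culture and in diseased arteries, a change called phenotypic modulation.

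The CArG box was looked for in the promoters, since it is the element through which SRF acts on these genes. RefSeq promoter windows of the build GRCm38.p6, 250 bases before to 50 after the start site, were matched for 7 of the 10 genes (Acta2, Myl9, Cnn1, Smtn, Mylk, Lmod1 and Des). The element was read as CC, then 6 bases that are all A or T, then GG, a pattern that reads the same on both strands, and 1 base other than A or T among the 6 was allowed as a looser match. The strict form was found in Myl9, and the looser form in Myl9 and at 2 places in Acta2. Of all 32851 windows 1.63% held the strict form and 9.98% held either form. The other 5 windows held neither, which says only that these letters are not in those windows. The stretches around the matches are shown because Acta2 and Myl9 are also among the 3 genes that reached 1 FPKM in at least 6 libraries. Capitals mark the matches. They begin 161 and 99 bases before the start site of the window in Myl9, and 84 and 34 bases before it in Acta2. The windows of Smtn and Mylk and the printed Acta2 stretch lie wholly inside the gene spans given below. Other start sites of these genes were not searched. The Myl9 stretch is chr2:156775283-156775394 on the plus strand and the Acta2 stretch chr19:34255378-34255477 on the minus strand, both written 5′ to 3′ along the gene.
Myl9: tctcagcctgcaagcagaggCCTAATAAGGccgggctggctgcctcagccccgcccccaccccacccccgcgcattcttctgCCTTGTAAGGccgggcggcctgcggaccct
Acta2: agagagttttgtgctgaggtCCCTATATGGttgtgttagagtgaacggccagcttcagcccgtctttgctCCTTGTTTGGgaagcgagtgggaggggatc

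Of the whole data set it matters here that KO replicates 5 and 6 stood apart from the other KO libraries. Across the 11831 genes tested, correlations of log2(FPKM + 1) were at least 0.993 among KO replicates 1 to 4 and at least 0.992 among WT libraries. Those of KO replicates 5 and 6 with the other KO libraries were 0.947 to 0.960. Results are therefore also given with KO replicates 1 to 4 only, a subset drawn from these same data. Where KO replicates 5 and 6 differ from the other KO libraries, as in Acta2, its p-values leave that spread out. The targeted gene Cth was at 0, 0, 0, 0.01, 0.02 and 0 FPKM in KO replicates 1 to 6 and at 0.08, 0, 0.01, 0.02, 0.02 and 0.01 FPKM in WT replicates 1 to 6, too low in both genotypes to check the labels (exact permutation p = 0.143, two-sided). Summed FPKM were 255538 to 281432 per library.

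The contractile markers fell into a few that were present and a majority near 0 in both genotypes. Only Acta2 and Smtn exceeded 2 FPKM in any library; the remaining 8 genes stayed under 2 FPKM in every library, and 7 of them under 1 FPKM in every WT library. In KO the order by mean was Acta2, Smtn, Myl9, Tagln, Lmod1, Mylk, Des, Cnn1, Myocd and Myh11. In WT it was Acta2, Smtn, Myl9, Tagln, Des, Lmod1, Mylk, Myh11, Cnn1 and Myocd. Acta2 stood clear of Smtn, and Smtn of Myl9, in both genotypes; Lmod1 also stood clear of Mylk in KO, and Myl9 of Tagln in WT. All other neighbours in these orders had overlapping ranges. Myh11 encodes the smooth muscle myosin heavy chain, the most specific marker of the lineage, and was close to 0 throughout. The cells are called by the name in the labels. Acta2 and Smtn were present, but the levels of Myh11, Tagln, Cnn1 and Myocd do not show a contractile smooth muscle state.

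**Figure D1:**
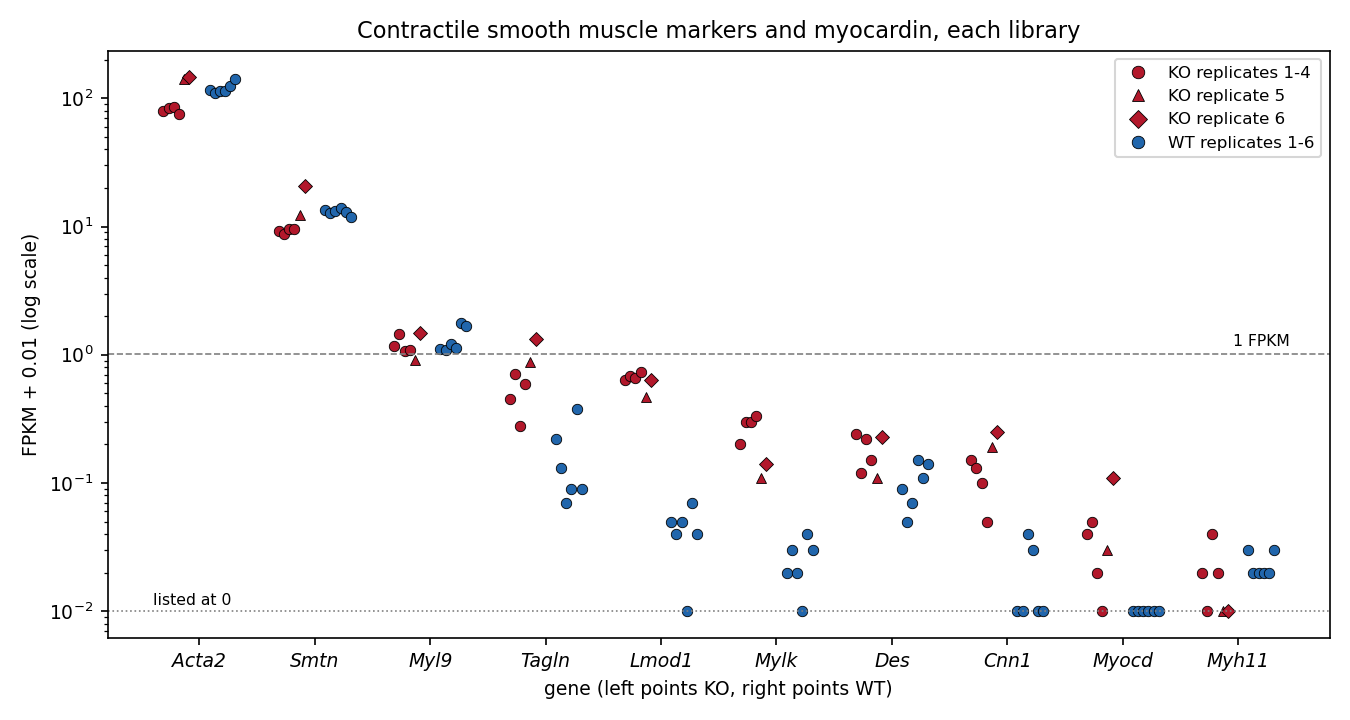
FPKM of the 10 genes in each library, with 0.01 added to all values on a log axis so that genes listed at 0 can be drawn; KO libraries are to the left of WT libraries for each gene. Acta2 and Smtn lie above the dashed line at 1 FPKM in all libraries and 7 genes lie below it in all WT libraries, while Lmod1, Mylk and Cnn1 are higher in all KO than in all WT libraries.

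A gene entered the limma comparison on log2(FPKM + 1) if 6 or more libraries held 1 FPKM or more, and its two-sided p-value was adjusted across the whole set of such genes (Benjamini-Hochberg). Acta2, Smtn and Myl9, 3 of the 10, met this limit. Acta2 and Smtn did so in every library, and Myl9 in all but KO replicate 5. The other 7 were compared by an exact permutation test on the same scale, adjusted over the 17229 genes that missed the limit and were above 0 in at least 1 library. At an adjusted p of 0.05 limma called 63.5% of the genes tested and the permutation test 11.0% of those below the limit (7.42% higher and 3.60% lower in KO). None of Acta2, Smtn and Myl9 was called in either direction by limma, nor did any have an unadjusted p under 0.05. Of the 7 genes below the limit, 4 were called, all higher in KO: Lmod1, Mylk, Cnn1 and Tagln.

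Acta2, which encodes the smooth muscle actin of the thin filament, lies at chr19:34241090-34255590 on the minus strand (GRCm38, GENCODE M21). It was at 80.25, 83.77, 85.09, 75.28, 141.13 and 145.52 FPKM in KO replicates 1 to 6, against 115.19, 111, 114.78, 113.93, 125.46 and 140.4 FPKM in WT replicates 1 to 6. KO replicates 1 to 4 lay below every WT library and KO replicates 5 and 6 above every one, so the mean of 102 ± 32.3 FPKM in KO and 120 ± 11.1 in WT (SD, n = 6 each) describes no single KO library. The difference did not pass (log2 change -0.29 ± 0.163 SE, limma adjusted p = 0.142). With KO replicates 1 to 4 only, where limma called 77.1% of genes (39.9% higher and 37.1% lower in KO), Acta2 was lower in KO at 81.1 ± 4.38 FPKM (n = 4; log2 change -0.56 ± 0.062 SE, adjusted p = 3.94e-06). It also passed without KO replicate 5 (adjusted p = 0.0331) and without KO replicate 6 (adjusted p = 0.0239).

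Smtn encodes smoothelin, an actin-binding protein of contractile smooth muscle, at chr11:3517523-3540612 on the minus strand. Its values were 9.17, 8.81, 9.55, 9.64, 12.26 and 20.53 FPKM in KO replicates 1 to 6, against 13.51, 12.66, 13.24, 13.89, 12.99 and 11.77 FPKM in WT replicates 1 to 6. KO replicates 1 to 4 were again below all WT libraries, KO replicate 5 lay within the WT range and KO replicate 6 was the highest library of all. Over all libraries the difference did not pass (log2 change -0.21 ± 0.162 SE, limma adjusted p = 0.286). Smtn passed as lower in KO when KO replicate 6 was left out (log2 change -0.37, adjusted p = 7.53e-04). The same held for KO replicates 1 to 4 taken alone (log2 change -0.44 ± 0.045 SE, adjusted p = 1.54e-06). Its visceral and vascular forms are not separated by a value per gene.

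**Figure D2:**
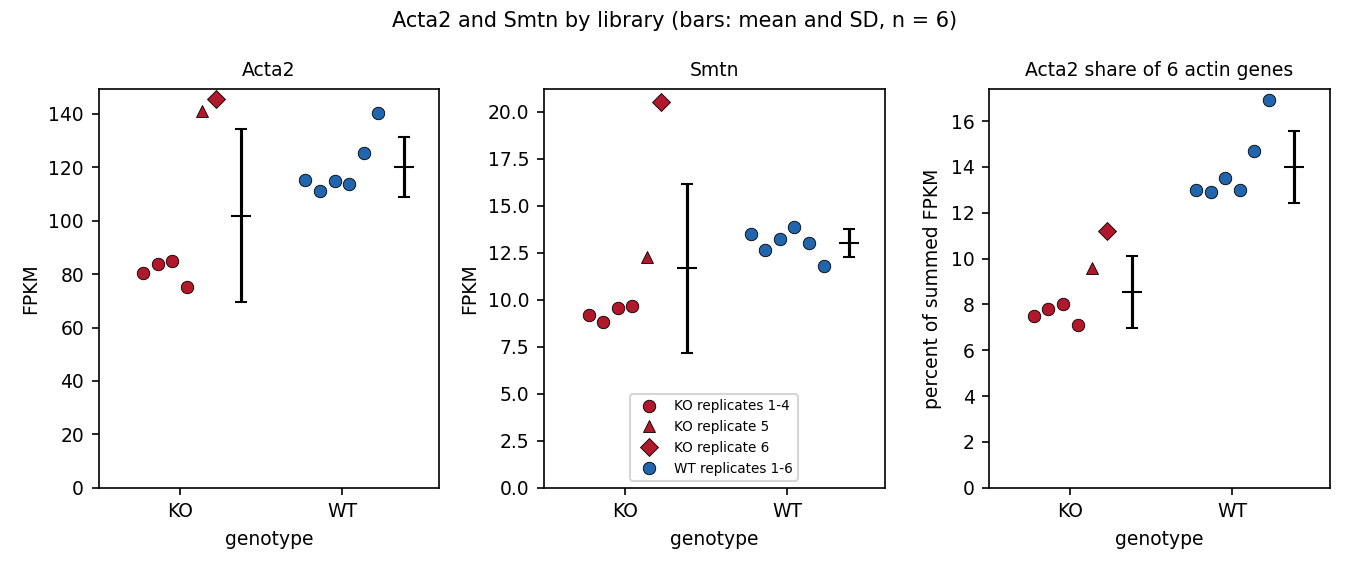
Acta2 and Smtn in FPKM and the Acta2 share of the summed FPKM of 6 actin genes in percent, by library, KO left of WT; bars show mean and SD over 6 libraries. In Acta2 KO replicates 5 and 6 reach 141.13 and 145.52 FPKM while KO replicates 1 to 4 stay at 75.28 to 85.09 FPKM, and the Acta2 share is below the WT range in all 6 KO libraries.

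Myl9, the myosin regulatory light chain of smooth muscle, at chr2:156775420-156781658 on the plus strand, was barely above the limit for testing. It was at 1.16, 1.43, 1.06, 1.08, 0.9 and 1.48 FPKM in KO replicates 1 to 6, against 1.1, 1.07, 1.2, 1.12, 1.76 and 1.68 FPKM in WT replicates 1 to 6. The ranges overlapped, and KO replicates 5 and 6 were the lowest and the highest KO library. The log2 change was -0.08 ± 0.094 SE (limma adjusted p = 0.458), and -0.08 ± 0.094 SE with KO replicates 1 to 4 only (adjusted p = 0.438).

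Among the contractile genes below the limit, Lmod1 had the largest difference on the log2 scale. It encodes leiomodin 1, which nucleates actin filaments in smooth muscle, at chr1:135324807-135368065 on the plus strand. KO replicates 1 to 6 held 0.63, 0.67, 0.65, 0.72, 0.46 and 0.63 FPKM, against 0.04, 0.03, 0.04, 0, 0.06 and 0.03 FPKM in WT replicates 1 to 6. The groups did not overlap, which was so in 9.66% of genes below the limit (6.72% higher and 2.94% lower in KO), and the ratio of the means was 18.8 (log2 change 0.65 on the log2(FPKM + 1) scale, which understates changes of low genes; exact permutation adjusted p = 0.0224). The level in KO nevertheless remained below 1 FPKM.

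Mylk encodes myosin light chain kinase, which phosphorylates the regulatory light chain, and its locus at chr16:34745210-35002420 on the plus strand also gives the non-muscle kinase and telokin, which a value per gene does not separate. It was at 0.19, 0.29, 0.29, 0.32, 0.1 and 0.13 FPKM in KO replicates 1 to 6, against 0.01, 0.02, 0.01, 0, 0.03 and 0.02 FPKM in WT replicates 1 to 6. All KO libraries were above all WT libraries, with KO replicates 5 and 6 the lowest of the KO libraries (exact permutation adjusted p = 0.0224). Cnn1, calponin 1, a thin filament protein that restrains the myosin ATPase, lies at chr9:22099216-22109630 on the plus strand. It was at 0.14, 0.12, 0.09, 0.04, 0.18 and 0.24 FPKM in KO replicates 1 to 6, against 0, 0, 0.03, 0.02, 0 and 0 FPKM in WT replicates 1 to 6. Here KO replicates 5 and 6 were the highest KO libraries and the groups again did not overlap (exact permutation adjusted p = 0.0224).

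Tagln encodes transgelin (SM22), an actin-binding protein that is abundant in contractile smooth muscle. It was at 0.44, 0.7, 0.27, 0.58, 0.86 and 1.32 FPKM in KO replicates 1 to 6, against 0.21, 0.12, 0.06, 0.08, 0.37 and 0.08 FPKM in WT replicates 1 to 6. The ranges touched, since KO replicate 3 lay below WT replicate 5, and the difference passed narrowly (log2 change 0.53, exact permutation adjusted p = 0.0393). It was lost with quantile normalization (adjusted p = 0.0595) and without any 1 library other than KO replicate 3 or WT replicate 5 (adjusted p = 0.0688 to 0.0741). Tagln lies at chr9:45929619-45936058 on the minus strand, where the antisense gene Gm48529 covers 3627 of its bases. No source used here says whether counting used strand, so reads of these genes may not have been told apart; Gm48529 was at 0.23 to 0.77 FPKM in KO and 0.18 to 0.45 FPKM in WT. Pcsk7, on the opposite strand, overlaps Tagln by 108 bases and was at 4.55 to 5.85 FPKM in KO and 3.43 to 3.83 FPKM in WT, higher in every KO library. The part of either overlap in the Tagln values was not tested.

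With KO replicates 1 to 4 only, the permutation test cannot pass for any gene below the limit, since the smallest p it allows, 0.00952, gave an adjusted p of 0.0681. A limma fit without the limit on low values, which called 34.5% of 29060 genes with all libraries (19.1% higher and 15.4% lower in KO), was also run on KO replicates 1 to 4, a choice made after the data were seen. It then called 41.5% of genes and gave adjusted p-values of 3.45e-09 for Lmod1, 3.90e-06 for Mylk, 0.00194 for Cnn1 and 0.0104 for Tagln, all higher in KO. In the authors' deposited table these 4 genes and Myocd were marked significant, with log2 ratios of WT over KO of -4.19, -3.84, -4.02 and -2.17 for Lmod1, Mylk, Cnn1 and Tagln.

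Myocd, the gene of myocardin itself, at chr11:65176561-65269989 on the minus strand, was listed at 0 in all 6 WT libraries. In KO replicates 1 to 6 it was at 0.03, 0.04, 0.01, 0, 0.02 and 0.1 FPKM, so that 5 of 6 KO libraries held a value above 0 and KO replicate 6 held the largest. The difference did not pass (exact permutation p = 0.0152, adjusted p = 0.0956) except without KO replicate 4 (adjusted p = 0.0418) and in the limma fit without the limit on KO replicates 1 to 4 (adjusted p = 0.0453). No fold is given against a group listed at 0.

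Myh11 and Des did not pass either in the exact test. Myh11, at chr16:14194535-14291372 on the minus strand, was at 0.01, 0, 0.03, 0.01, 0 and 0 FPKM in KO replicates 1 to 6, against 0.02, 0.01, 0.01, 0.01, 0.01 and 0.02 FPKM in WT replicates 1 to 6 (exact permutation adjusted p = 0.651). Des encodes desmin, the muscle intermediate filament protein, at chr1:75360329-75368579 on the plus strand. Its values were 0.23, 0.11, 0.21, 0.14, 0.1 and 0.22 FPKM in KO replicates 1 to 6, against 0.08, 0.04, 0.06, 0.14, 0.1 and 0.13 FPKM in WT replicates 1 to 6, with overlapping ranges (exact permutation p = 0.0325, adjusted p = 0.175). Des passed narrowly as higher in KO in the limma fit without the limit, with all libraries (adjusted p = 0.0477) and with KO replicates 1 to 4 (adjusted p = 0.0476).

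KO replicate 6 held the highest KO value in 6 of the 10 genes, and KO replicates 5 and 6 were the highest pair in 4. Over all genes tested, KO replicate 6 was the highest KO library in 23.4% and KO replicates 5 and 6 the highest pair in 24.7%. These shares leave out the genes below the limit, 7 of the 10 among them. The counts therefore cannot be set directly against these shares. Markers of cycling cells were also high in these libraries, summing to 270 and 339 FPKM against 130 to 185 FPKM in WT. Mki67 was at 31.46 and 119.95 FPKM in KO replicates 5 and 6, and at 14.18 to 18 FPKM in KO replicates 1 to 4. It was at 20.13 to 27.48 FPKM in WT. Not every marker exceeded WT. Top2a, at 50.8 and 55.42 FPKM in KO replicates 5 and 6, lay within the WT range of 41.0 to 59.3 FPKM. Ccna2 and Bub1 lay within the WT range in KO replicate 6. The part of cycling in the levels of Acta2 and Smtn was not tested.

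Next, each marker was set beside the related genes that do the same work outside contractile smooth muscle. The cytoplasmic actins Actb and Actg1, the non-muscle myosin heavy chains Myh9 and Myh10, the light chains Myl12a, Myl12b and Myl6, the calponins Cnn2 and Cnn3, and Tagln2 were all at 15.37 FPKM or more in every library, above Myh11, Myl9, Cnn1 and Tagln in each case. Of the smooth muscle members of these families, Acta2 alone exceeded 2 FPKM. Of 15 such relatives tested, 7 were higher and 5 lower in KO and 3 did not pass, with a median log2 change of 0.08 (0.01 over all genes tested, of which 32.6% were higher and 30.9% lower). The 7 were Actb, Actg1, Myh9, Myh10, Cnn2, Tagln2 and Mrtfa. The 5 were Nes, Vim, Mrtfb, Myl12b and Tmod3. Myl6, Myl12a and Cnn3 did not pass, although Cnn3 passed as higher in KO with KO replicates 1 to 4 only (log2 change 0.14 ± 0.030 SE by limma, against -0.08 over all libraries).

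Actb was at 534 ± 106 FPKM in KO and 286 ± 17.7 in WT (SD, n = 6 each), 1.87-fold higher (limma adjusted p = 9.82e-06), with 699.04 and 637.88 FPKM in KO replicates 5 and 6. Actg1 averaged 537 ± 45.4 FPKM in KO and 454 ± 14.9 in WT (adjusted p = 0.00231). The Acta2 share of the summed FPKM of 6 actin genes (Acta2, Actg2, Acta1, Actc1, Actb and Actg1) was 7.51, 7.82, 8.00, 7.09, 9.61 and 11.2% in KO replicates 1 to 6, against 13.0, 12.9, 13.5, 13.0, 14.7 and 16.9% in WT replicates 1 to 6. No KO library reached the lowest WT library, and the mean share was 8.53 ± 1.55% in KO and 14.0 ± 1.59% in WT (exact permutation p = 0.00216, two-sided, the smallest that 6 against 6 libraries allow). KO replicates 5 and 6, which had the highest Acta2 levels of all, also had the highest Actb levels. The share depends on Actb and Actg1, both higher in KO, as well as on Acta2, which itself was not called (limma adjusted p = 0.142). Among single genes tested, the groups did not overlap in 46.4%. No 150-base stretch of the annotated Acta2 transcripts occurred in those of the other 5 actin genes, although reads of Actb and Actg1 may be split with their processed copies in an unknown way.

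The same comparison for the regulatory light chains showed no such shift. Myl9 made up 0.946, 1.26, 0.964, 0.971, 0.698 and 1.25% of the summed FPKM of Myl9, Myl12a and Myl12b in KO replicates 1 to 6, against 0.884, 0.837, 0.938, 0.848, 1.52 and 1.34% in WT replicates 1 to 6. The ranges overlapped (exact permutation p = 0.736), and the sign of the difference of -0.0469 percentage points turned when KO replicate 5, WT replicate 5 or WT replicate 6 was left out. Myl12b itself was lower in KO, at 23.3 ± 5.79 FPKM against 36.6 ± 1.85 in WT (limma adjusted p = 0.00113).

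Other relatives moved as follows. Cnn2 was at 115 ± 32.1 FPKM in KO and 63.0 ± 0.937 in WT (limma adjusted p = 9.69e-05), and Myh9 at 191 ± 49.4 and 116 ± 4.77 FPKM (adjusted p = 3.01e-04). The calls of Myh10 and Tagln2 were weak: Myh10 lost its call without WT replicate 6 (adjusted p = 0.0510), and Tagln2 without WT replicate 1, 5 or 6 (adjusted p = 0.0544, 0.0507 and 0.0629). The intermediate filament genes nestin and vimentin were lower in KO, with Nes at 2.04 ± 0.420 FPKM in KO and 22.4 ± 3.22 in WT (adjusted p = 6.84e-11) and Vim at 480 ± 75.2 and 775 ± 37.6 FPKM (adjusted p = 1.21e-05). Of 13 relatives below the limit, Myh14, the smoothelin-like gene Smtnl2 and synemin (Synm) were higher in KO and 10 did not pass. Among all genes below the limit 7.42% were higher and 3.60% lower in KO. Smtnl2 was at 1.79, 1.62, 1.68, 1.48, 0.25 and 0.79 FPKM in KO replicates 1 to 6 and at 0 to 0.13 FPKM in WT (exact permutation adjusted p = 0.0224).

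**Figure D3:**
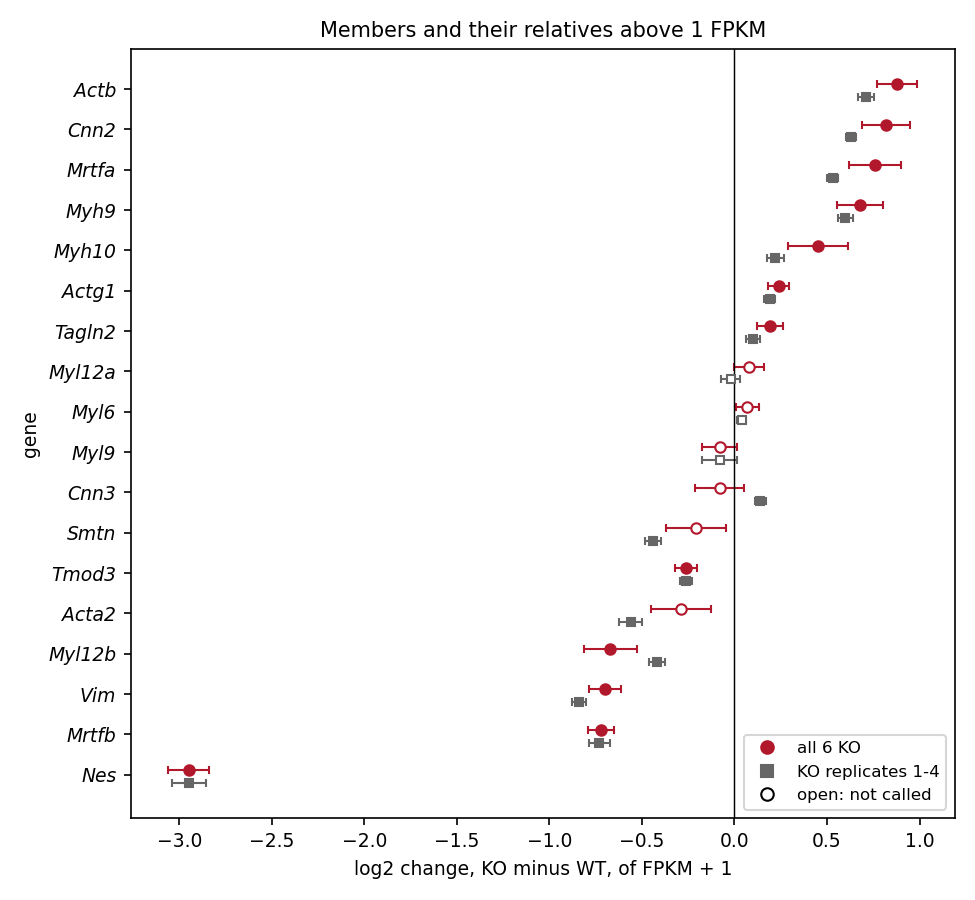
Log2 change of FPKM + 1, KO minus WT, with its standard error, for the markers and their relatives that were tested; circles use all 6 KO libraries, squares KO replicates 1 to 4, and open symbols did not pass. Actb, Cnn2 and Myh9 lie to the right of 0 and Nes at -2.95 far to the left, while Acta2 and Smtn are open with all libraries and filled with KO replicates 1 to 4.

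The factors that control the contractile genes were called in both directions. Of 20 tested regulators of SRF and myocardin, 8 were higher and 8 lower in KO and 4 did not pass (median log2 change -0.09), beside 32.6% higher and 30.9% lower among all genes tested. SRF itself was among the rises, with Srf at 9.28, 9.27, 8.92, 9.73, 14.03 and 18.23 FPKM in KO replicates 1 to 6, against 6.81, 6.99, 7.17, 7.53, 7.13 and 6.12 FPKM in WT replicates 1 to 6 (log2 change 0.61 ± 0.149 SE, limma adjusted p = 0.00268). All KO libraries were above all WT libraries, as in 23.8% of genes tested (22.5% lower, 46.4% in either direction), and KO replicates 5 and 6 were the highest. The 2 myocardin-related coactivators of SRF, which respond to the pool of free actin, parted: Mrtfa was at 21.3 ± 6.64 FPKM in KO and 11.8 ± 0.291 in WT (adjusted p = 3.95e-04), and Mrtfb at 3.90 ± 0.513 and 7.05 ± 0.379 FPKM (adjusted p = 1.08e-06). Both were far above Myocd in every library.

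Among cofactors, the LIM protein genes Csrp2 and Fhl2 were higher in KO, Csrp2 at 11.8 ± 1.62 FPKM against 3.95 ± 0.233 in WT (limma adjusted p = 8.43e-09) and Fhl2 at 11.4 ± 3.77 FPKM against 4.44 ± 0.426 (adjusted p = 2.47e-05). Of the GATA factors, Gata4 was at 4.21 ± 0.519 FPKM in KO and 0.0850 ± 0.0302 in WT, and Gata6, the form known from vascular smooth muscle, at 8.79 ± 2.09 and 16.5 ± 0.636 FPKM (adjusted p = 5.23e-12 and 4.99e-05). Gata4 met the limit for testing through the KO libraries alone. Klf4, a repressor of the contractile genes in modulated smooth muscle, was lower in KO at 40.8 ± 3.67 FPKM against 61.3 ± 1.98 in WT (adjusted p = 1.98e-06). Of the ternary complex factors, which compete with myocardin for SRF, Elk4 was lower, at 4.17 ± 0.331 FPKM against 7.42 ± 0.393 in WT (adjusted p = 1.24e-07), while Elk1 and Elk3 were higher (adjusted p = 1.64e-05 and 7.93e-07).

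Of the listed SRF target genes that many cell types express, most were higher in KO. This list, like the others, was chosen with earlier results of these data known. Of 20 listed and tested, 15 were higher, Vcl, Egr1 and Egr2 were lower, and Tpm1 and Fos did not pass (median log2 change 0.57, against 0.01 over all genes tested, of which 32.6% were higher and 30.9% lower). Egr2 met the limit for testing through the WT libraries alone. Cald1, caldesmon, was at 91.1 ± 4.09 FPKM in KO and 28.6 ± 0.636 in WT (limma adjusted p = 3.00e-12). Zyx, the focal adhesion protein zyxin, was at 57.8, 57.48, 55.62, 57.05, 87.73 and 125.4 FPKM in KO replicates 1 to 6 and at 26.7 to 28.8 FPKM in WT (adjusted p = 2.42e-05). The matricellular genes Ccn1 and Ccn2 were 2.98- and 2.87-fold higher (adjusted p = 2.85e-06 and 3.02e-06). Egr1, an immediate early gene, was at 7.38 ± 1.86 FPKM in KO and 13.7 ± 2.41 in WT (adjusted p = 4.90e-04). The difference in log2 change between these genes and the contractile markers was not tested, and 5 of the 20 (Srf, Actb, Actg1, Myh9 and Fhl2) also stand in the lists above. KO replicates 1 to 4 alone gave 15 higher and 3 lower, beside 39.9% and 37.1% of all genes.

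**Figure D4:**
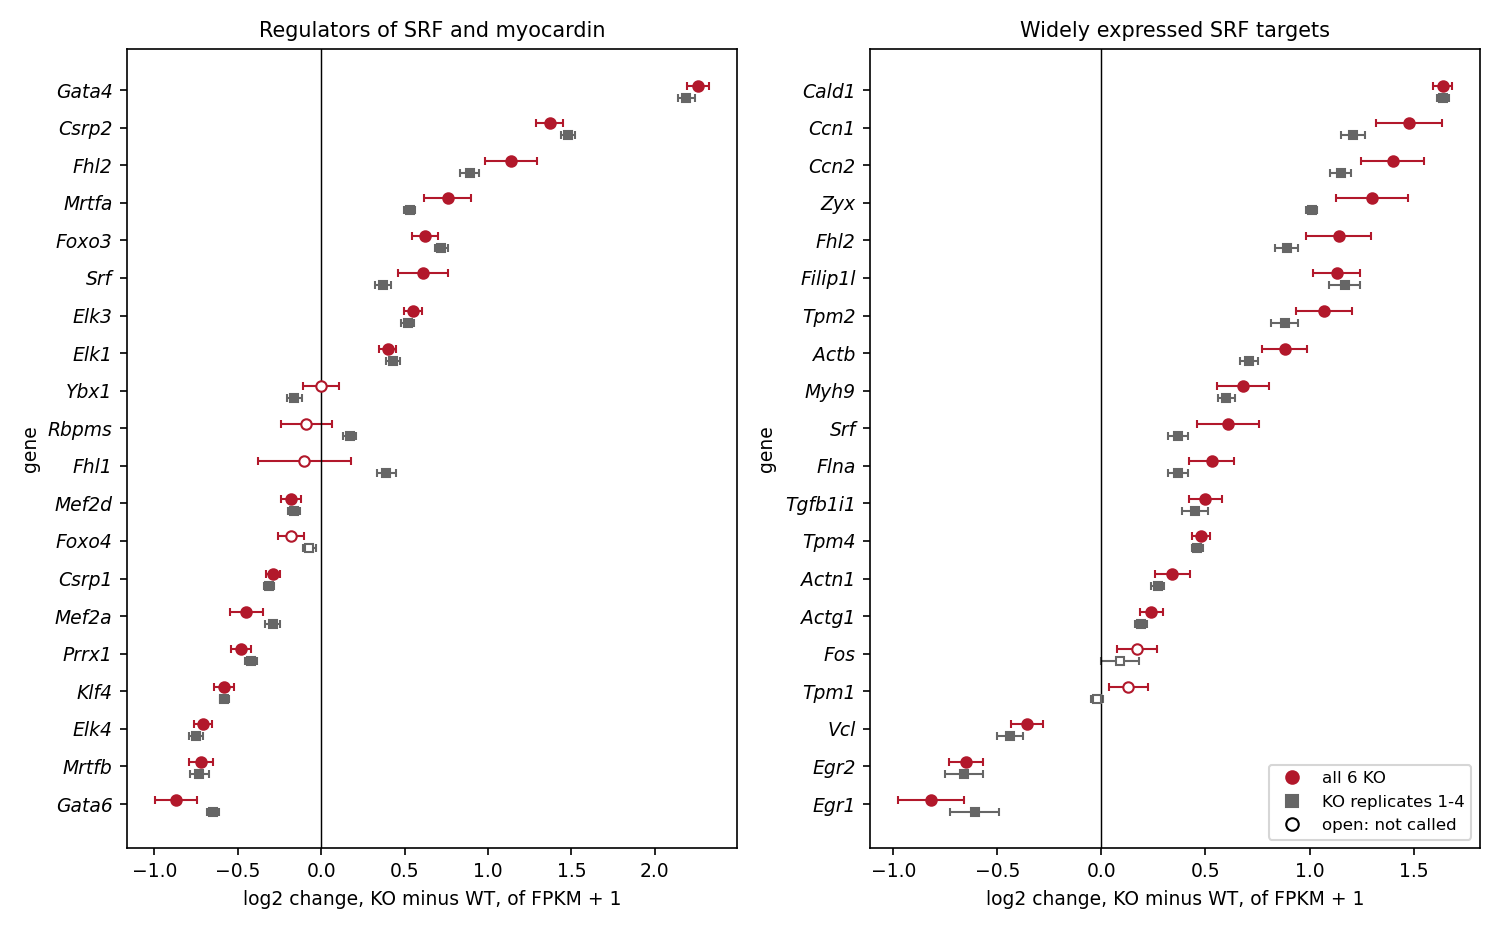
Log2 change of FPKM + 1, KO minus WT, with its standard error, for tested regulators of SRF and myocardin (left) and widely expressed SRF targets (right); circles use all 6 KO libraries, squares KO replicates 1 to 4, and open symbols did not pass. Regulators lie on both sides of 0, with Mrtfa to the right and Mrtfb to the left, whereas 15 of 20 targets lie to the right with filled symbols.

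Mylk acts with a set of genes that govern light chain phosphorylation, most of them well above its level. Of 17 tested, 5 were higher and 3 lower in KO and 9 did not pass (median log2 change 0.02), beside 63.5% of all genes tested called in either direction. Prkg1, the cyclic GMP-dependent kinase of smooth muscle relaxation, was listed at 0 in all WT libraries and was at 1.28, 1.49, 1.54, 1.4, 1.11 and 1.12 FPKM in KO replicates 1 to 6 (limma adjusted p = 7.47e-10). It met the limit for testing through the KO libraries alone. Dapk3, a calcium-independent light chain kinase, was at 15.9 ± 1.40 FPKM in KO and 9.37 ± 0.489 in WT (adjusted p = 4.23e-07). Ppp1r12a, the targeting subunit of myosin phosphatase, was at 11.2 ± 0.934 and 15.4 ± 0.766 FPKM (adjusted p = 3.51e-05). The calmodulin genes parted, with Calm3 at 84.6 ± 2.28 FPKM in KO against 52.0 ± 2.71 in WT (adjusted p = 2.97e-08) and Calm2 at 169 ± 22.7 against 251 ± 8.99 FPKM (adjusted p = 2.87e-05). Ppp1r14b was also higher and Rhob lower in KO, whereas Rhoa, Rock1 and Rock2 did not pass (adjusted p = 0.931, 0.179 and 0.207). The fifth higher gene was Arhgef11.

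A second list held further smooth muscle and pericyte markers. Of 25 found in the table, 13 were under 1 FPKM in every library, among them Actg2, Synpo2, Pln, Casq2, Itga8 and Kcnmb1. Of the 9 that could be tested, Sncg, Rbpms2 and Hspb6 were higher in KO, Notch3, Cspg4 and Rgs5 were lower, and Npnt, Pdgfrb and Ppp1r12b did not pass, beside 32.6% higher and 30.9% lower among all genes. Sncg, gamma-synuclein, was at 12.7 ± 1.02 FPKM in KO and 0.668 ± 0.180 in WT (limma adjusted p = 1.91e-12). It met the limit for testing through the KO libraries alone, and Cspg4 through the WT libraries alone. Notch3, the Notch receptor of mural cells, was at 1.88 ± 0.716 FPKM in KO and 5.26 ± 0.466 in WT (adjusted p = 1.92e-05). Rgs5, a pericyte marker, was at 11.56, 11.49, 11.19, 11.8, 0.96 and 0.52 FPKM in KO replicates 1 to 6 and at 14.3 to 17.2 FPKM in WT. The limma call of Rgs5 (adjusted p = 0.0365) did not hold when KO replicate 5 or 6 was left out (adjusted p = 0.0776 and 0.0636), nor without any 1 WT library (adjusted p = 0.0528 to 0.0607). With KO replicates 1 to 4, where the groups did not overlap, Rgs5 was lower in KO (log2 change -0.43 ± 0.048 SE, adjusted p = 4.23e-06). Among those below the limit, Mustn1, Ednra and Ppp1r14a were higher and Mcam lower in KO. Of all genes below the limit 7.42% were higher and 3.60% lower.

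Markers of other cell types also differed between the genotypes. Beside them stand 32.6% higher and 30.9% lower in KO among all genes tested. Fibroblast markers (7 of 11 tested, 4 higher and 1 lower in KO) summed to 1183 to 1280 FPKM in KO replicates 1 to 4, to 506 and 724 FPKM in KO replicates 5 and 6, and to 832 to 883 FPKM in WT. The KO libraries thus lay on both sides of the WT range. KO replicates 1 to 4 alone gave 6 higher and 1 lower, beside 39.9% and 37.1% of all genes tested. Col3a1 and Dpt, both called higher, met the limit for testing through the KO libraries alone. Col3a1 was at 106 ± 65.3 FPKM in KO and 0.593 ± 0.0948 in WT. The fibroblast marker called lower was Col1a2, at 173 ± 65.3 FPKM in KO and 299 ± 7.75 in WT (limma adjusted p = 0.00513). Mesothelial markers (5 of 7 tested, 4 higher and 1 lower) summed to 116 to 130 FPKM in KO, most of it Pdpn, and 11.3 to 12.4 FPKM in WT. Upk3b and Wt1, both among the higher, met the limit through the KO libraries alone. The mesothelial marker called lower was Msln, at 3.61 ± 1.83 FPKM in KO and 5.96 ± 0.183 in WT (limma adjusted p = 0.0251). Msln lost its call without KO replicate 6 (adjusted p = 0.0508). Epithelial markers (2 of 10 tested, both lower) summed to 40.3 to 59.8 FPKM in KO and 140 to 148 FPKM in WT, nearly all Cdh1 and Krt19, and Cdh1 alone was at 0.860 ± 0.314 FPKM in KO and 65.0 ± 1.69 in WT, while Epcam was at 0.15 FPKM or less. Endothelial markers were all under 1 FPKM and summed to 0.780 to 1.12 FPKM in KO and 0.130 to 0.300 FPKM in WT, with Cdh5 at 0.01 FPKM or less. Of these 8 genes Kdr and Erg were higher in KO without overlap (exact permutation adjusted p = 0.0224 for each). That was so in 6.72% of genes below the limit. Kdr was at 0.4 to 0.81 FPKM in KO against 0 to 0.01 FPKM in WT. Of the myeloid markers (3 of 6 tested) Cd68 and Csf1r were higher in KO, Csf1r meeting the limit through the KO libraries alone. Cd14 did not pass, at 39.9 ± 4.53 FPKM in KO and 39.5 ± 2.95 in WT (limma adjusted p = 0.916). Ptprc and Adgre1 were at 0.04 FPKM or less. Below the limit, Thy1, Gpm6a, Krt18 and Lyz2 were higher and Krt14 lower in KO (exact permutation adjusted p = 0.0224 for each). Of all genes below the limit 7.42% were called higher and 3.60% lower. In striated muscle Tnnt2 was lower in KO (limma adjusted p = 1.82e-04), and of 8 cycling cell markers 3 were higher, 1 lower and 4 did not pass. The count of higher cycling markers went down to 1 with some single libraries left out. KO replicates 1 to 4 gave 3 higher and 5 lower, beside 39.9% and 37.1% of all genes tested. The summed FPKM of the 8 cycling cell markers were 115 to 126 in KO replicates 1 to 4. They were 270 and 339 in KO replicates 5 and 6 and 130 to 185 in WT. The part of cell type in the differences of the contractile genes was not tested, and in bulk RNA fewer cells that hold a transcript cannot be told apart from less of it per cell.

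Genes whose profile over the 12 libraries was most like that of a tested marker were found by the smallest root mean square difference of log2(FPKM + 1), each gene centred on its own mean. For Acta2, whose own deviation from its mean was 0.320, these were Wdr55, Pxdc1 and Tubb5, of which Pxdc1 was at 0.116 and Tubb5 at 0.126. Tubb5, a beta tubulin, was at 171 to 187 FPKM in KO replicates 1 to 4, at 313.36 and 283.04 FPKM in KO replicates 5 and 6, and between these ranges in all WT libraries. For Smtn, with an own deviation of 0.302, they were Mllt1, Rfc1 and Lmna, at 0.0738, 0.0775 and 0.0785, of which Lmna encodes lamin A/C. For Myl9, with an own deviation of only 0.160, they were Washc2, Rreb1 and Zfp219, of which Washc2 was at 0.0998 and Zfp219 at 0.102.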

How the data were processed

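The authors deposited FPKM per gene and library, to 2 decimals, per the file headers. The deposited table also holds a ratio of mean FPKM of WT over KO (a fold) and the log2 of that ratio. The authors' p-value and q-value stand beside them, and no source used here names the test. Per the labels' protocols, polyadenylated RNA was sequenced in pairs with strand marked by dUTP. The build mm9 and the tools StringTie 1.3.4d, HISAT2 2.0.4 and cutadapt 1.9, besides edgeR and DESeq2, are listed in the submitters' processing notes with no role. The table has no coordinates, so positions are those of GRCm38 (GENCODE M21). No counts were used, so no count test was run, and each FPKM is relative to its library's other genes.

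Libraries were grouped by the genotype in their titles. limma 3.58.1 in R 4.3.3 was fitted to log2(FPKM + 1) of 11831 genes, with a variance trend and no covariate. Exact permutation tests ran over all 924 assignments in Python 3.11.15, and both tests were tested on simulated data. In any pair of libraries 3.37% of tested genes at most were equal to within 0.01 FPKM, so none was a copy.

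Genes and lists were chosen with earlier results of these data known. The text names the 10 genes, their relatives, up to 4 called genes per direction of each other list, the 3 genes nearest to each tested marker and Cth; the other names, such as Elk1, Elk3 and Mki67, complete counts or stand beside a result and were added after their values were seen. Of the listed genes, Lmod3, Tcf21, Agtr1a, Muc16, Esrp1, Myog and Myod1 were not analysed here, and 1 further result on a listed gene is not reported here.

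Alternatives were the pseudocount, the filter on low values, TPM, median-ratio and quantile scaling, no variance trend, the replicate number as a block, each library left out and KO replicates 1 to 4 only.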

Additional observations from a re-analysis of the deposited data

Results flagged for a closer look

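Of 144 groups of 6 libraries examined, 13 held a library far from the others by Dixon's criterion at the 95% level; chance gives about 1 in 20. Among the contractile genes these were Smtn at 20.53 FPKM in KO replicate 6 (8.81 to 12.26 in the other KO libraries), Lmod1 at 0.46 FPKM in KO replicate 5 (0.63 to 0.72 in the others) and Myh11 at 0.03 FPKM in KO replicate 3 (0 to 0.01 in the others). Among their relatives, KO replicate 6 stood out with Myh9 at 288.37, Myh10 at 44.86 and Cnn2 at 178.04 FPKM, KO replicate 5 with Actg1 at 628.88 and Myl6 at 126.38 FPKM, and WT replicate 6 with Actg1 at 425 FPKM. In the other lists the WT libraries that stood out were replicate 2 with Cald1 at 27.37 FPKM, replicate 6 with Fbln1 at 2.35 and Upk1b at 2.44 FPKM, and replicate 1 with Msln at 5.61 FPKM.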

How the results depend on the processing

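No contractile gene was called higher by limma, beside 32.6% of all genes tested. Without the filter on low values 5 of the 10 were higher, beside 19.1% of all genes in that fit. With KO replicates 1 to 4 only and no filter, 6 were higher and 2 lower, beside 24.0% and 17.5% of all genes. That setting was chosen after seeing the data. With the filter and all libraries the count called lower was 0, beside 30.9% of all genes tested. With 1 library left out it was 0 to 2, reaching 1 without KO replicate 5 and 2 without KO replicate 6. It was also 2 when KO replicates 5 and 6 were both left out, beside 37.1% of all genes tested. Of the genes below the limit 4 were called, against 0 when both were left out and 0 with the replicate block; neither of these tests can pass for any gene below the limit, the block giving at best an adjusted p of 0.232. The numbers do not pair the libraries: deviations of same-numbered libraries correlated at -0.27 to -0.06, and the replicate block changed the limma call of no contractile gene, while among their relatives Tagln2 lost its call (adjusted p = 0.0801). The Acta2 share of actin FPKM differed by -5.46 points, by -6.39 with KO replicates 1 to 4 only, and kept its direction and side of the threshold under every alternative run. The difference in the Myl9 share turned to 0.0164, 0.0457 and 0.00811 points without KO replicate 5, WT replicate 5 and WT replicate 6, and had no call under any alternative run; with 1 library left out it ranged from -0.0959 to 0.0457. Under TPM, median-ratio and quantile scaling the median log2 change of all genes was 0.03, -0.00 and -0.04, and Acta2, Smtn and Myl9 kept their sign and stayed uncalled. The unknown depth limits all values near 0.01 FPKM.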
